A study of Mus musculus with 19 samples.

Results

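Axin2, Nkd1, Notum and Lgr5 are genes that β-catenin switches on in the liver and that act back on the Wnt pathway, and 10 mouse liver tumours were ranked by their mean level. The 5 tumours ranked highest (07, 10, 11, 08 and 13) were compared with the 5 ranked lowest (04, 05, 12, 09 and 06) across all other genes. The 19 samples in all were 13 tumours, 3 controls and 3 high AAV controls. The 10 tumours were those whose column carried a number found in a single title; the match rests on that number alone, since the labels do not state that title numbers are library numbers. RNA was taken from whole tumour tissue and sequenced after selection of polyadenylated RNA.

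Both groups shared one genotype, sex and treatment. All mice were male, heterozygous for Ctnnb1tm1Mmt, the allele that loses exon 3 of β-catenin under Cre, and homozygous for Gt(ROSA)26Sortm1(MYC)Djmy, a MYC transgene under a stop cassette. AAV8.TBG.PI.Cre.rBG was given at 640000000 genome copies per mouse. The TBG promoter restricts Cre to hepatocytes, so stroma, vessels and immune cells keep the unrecombined alleles. Animals were induced as young adults and tumours were taken at end stage. No label separates the groups, which were made from the measured RNA alone, and every difference below is an association among 10 tumours.

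In the Wnt pathway, a ligand bound to its receptor stops the destruction complex from degrading β-catenin, which then enters the nucleus and acts with TCF/LEF factors. Several of the target genes limit the signal that induced them. AXIN2 is a scaffold of the destruction complex, NKD1 binds Dishevelled, and NOTUM is a secreted enzyme that strips the lipid from Wnt ligands. LGR5 is a receptor for R-spondins, which protect Wnt receptors from the ligases RNF43 and ZNRF3. In normal liver the pathway is most active in the hepatocytes around the central vein and sets their metabolic genes. β-catenin without exon 3 escapes the destruction complex, so signalling no longer needs a ligand.

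Levels are given as CPM, the count of a gene per 1000000 counts over all genes of that tumour. The score was the mean log2(CPM + 1) of the 4 genes. It was 7.88 in tumour 07, 7.495 in 10, 7.41 in 11, 7.36 in 08 and 6.99 in 13. It was 6.93 in tumour 04, 6.84 in 05, 6.61 in 12, 6.52 in 09 and 6.28 in 06. The values formed a gradient without a break at the line between the groups: tumours 13 and 04, next to that line, differed by 0.06. When the score was computed with TMM scaling, 4 of the 5 high tumours kept their place and tumours 13 and 04 traded groups. The group means were 7.43 ± 0.32 and 6.63 ± 0.26 (SD, n = 5 each), a 1.73-fold difference.

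The 4 genes were not equally separated. In the tumour order 07, 10, 11, 08, 13, Notum (chr11:120653788-120661193, GRCm38.p6) stood at 249, 194, 187, 178 and 165 CPM. In the order 04, 05, 12, 09, 06, it stood at 114, 81.3, 110, 92.9 and 70.4 CPM. The lowest high tumour lay above the highest low tumour, and Notum was the only one of the 4 genes whose groups did not overlap. Nkd1 (chr8:88521342-88594887) stood at 523, 599, 306, 418 and 198 CPM in the high tumours. It stood at 303, 206, 112, 186 and 99.8 CPM in the low tumours. Its range was the widest of the 4, 6.00-fold between the extremes, and tumour 13 fell among the low tumours.

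Axin2 (chr11:108917828-108950783) stood at 216, 170, 175, 145 and 206 CPM in the high tumours. It stood at 145, 201, 131, 103 and 108 CPM in the low tumours. Tumour 05 thus had as much Axin2 as the upper high tumours while its score was low. Lgr5 (chr10:115450314-115587780) stood at 108, 52.1, 81.5, 64.9 and 37.5 CPM in the high tumours, and at 42.6, 48.6, 54.3, 37.4 and 45.1 CPM in the low tumours. Tumour 13 had hardly more Lgr5 than tumour 09, the lowest of all. High over low ratios of the mean CPM were 2.08 for Notum, 2.26 for Nkd1, 1.51 for Lgr5 and 1.32 for Axin2. The groups were chosen by these measured values, which are a description. Across the 10 tumours, which share that scaling, the Pearson r of log2 levels was 0.81 for Nkd1 with Notum and 0.45 for Axin2 with Lgr5, the extremes of the 6 pairs.

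**Figure D1:**
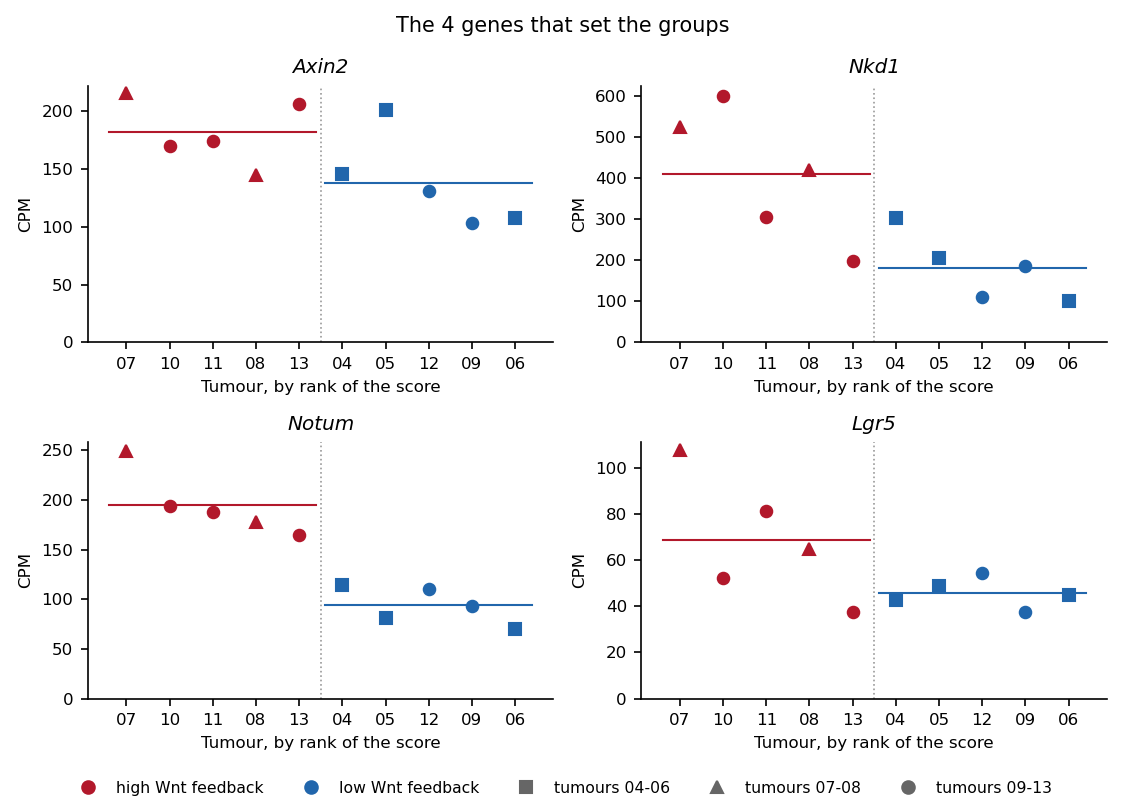
CPM (linear axes from 0) of Axin2, Nkd1, Notum and Lgr5 in each of the 10 tumours, ordered by the score from left to right; each symbol is 1 tumour, colour gives the group, shape gives the tag family, and lines are group means (n = 5). The high tumours lie at 165 to 249 CPM for Notum and the low tumours at 70.4 to 114 CPM, while the groups overlap for the other 3 genes.

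The table's column names carry a short tag for each tumour whose meaning the labels do not give, and tumours with 1 tag may come from 1 animal. By the first part of the tag, tumours 04 to 06 formed a family that was all low, tumours 07 and 08 one that was all high, and tumours 09 to 13 one with 3 high (10, 11, 13) and 2 low (09, 12). By the full tag, tumours 05 and 06 formed a set, as did 07 and 08, 09 and 10, and 11, 12 and 13, and the last pair of sets each held both groups. With the full tag as a term, added after seeing the data, edgeR called 0 genes (902 of 14216 at an unadjusted p under 0.05), and the median log2 fold change was 0.26 for the other Wnt regulators, 0.04 for pericentral genes and −0.39 for hypoxia and glycolysis. In that fit it was −0.82 for the acute phase, −0.71 for immediate early genes, −0.89 for endothelial and −1.02 for fibroblast markers. For the first 5 of these tumours, family and group cannot be told apart, so list medians within tumours 09 to 13 are given beside the pooled ones. Total counts ran from 11687034 to 36964427 and did not separate the groups (exact permutation test, two-sided, p = 0.556, adjusted p = 0.923 over 5 technical measures, smallest possible p = 0.00794). Rpph1 and Rmrp, short structured RNAs that lack a regular poly(A) tail, stood apart in 3 libraries: Rpph1 was at 48.0 CPM in tumour 07, 39.4 in 05 and 28.8 in 06, against 0.751 to 4.27 CPM in the other 7. A comparison without those 3 libraries set 4 high tumours (08, 10, 11, 13) against 3 low ones (04, 09, 12).

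The tumours expressed hepatocyte markers at a high summed level, 37678 to 49596 CPM in the high and 36809 to 50987 CPM in the low group over the 21 markers of the list. Ctnnb1, the engineered gene, stood at 501, 485, 251, 394 and 424 CPM in the high and 486, 315, 264, 392 and 334 CPM in the low tumours. The groups overlapped over most of their range (log2 fold change, high minus low, 0.23 ± 0.22 SE, unadjusted p = 0.324, edgeR). Counts assigned to mouse Myc stood at 58.8 to 91.1 CPM in the high and 59.9 to 133 CPM in the low tumours (−0.24 ± 0.20, unadjusted p = 0.257, edgeR). The human MYC transgene was not counted separately, and whether its reads add to the Myc counts was not tested.

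Of 14216 genes tested outside the rule, none passed edgeR's quasi-likelihood test at an adjusted p under 0.05 in either direction (0% called), and the smallest adjusted p was 0.0900. An unadjusted p under 0.05 was reached by 1450 genes, 10.2% of those tested: 665 were higher in the high tumours (4.68%) and 785 lower (5.52%). DESeq2, run on the same counts, called 64 genes higher (0.511% of 12514 with an adjusted p) and 55 lower (0.44%), 0.951% in both directions. The CPM ranges of the groups did not overlap for 124 genes with the high tumours above (0.872%) and for 97 with the high tumours below (0.682%), 1.55% in all. Over all genes the median log2 fold change was −0.01, with 48.3% of values positive and 51.7% negative. Changes larger than 2-fold in the fit were more often negative, with 425 genes lower (2.99%) and 195 higher (1.37%). In simulated counts with the spread of these libraries, 31 of 98 genes changed by 2-fold and 76 of 97 changed by 4-fold were recovered. The gene values that follow are therefore levels and fitted differences that did not pass the edgeR test, and genes that DESeq2 called are named as such.

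Scn4b, which encodes a β subunit of voltage-gated sodium channels, had the lowest p of all genes. Its levels were 35.4, 25.3, 25.8, 27.2 and 23.9 CPM in tumours 07, 10, 11, 08 and 13. They were 7.91, 3.99, 9.63, 6.92 and 4.12 CPM in tumours 04, 05, 12, 09 and 06. The high tumours clustered within a narrow band and every low tumour was far under it. The log2 fold change was 2.10 ± 0.27 (SE), a 4.29-fold difference (edgeR adjusted p = 0.0900; DESeq2 adjusted p = 3.66e-10). Within tumours 09 to 13 it was 1.62. Without tumour 12, which had the highest Scn4b of the low group, the edgeR adjusted p was 0.0244, and without any filter on low counts it was 0.0360. It was 0.0924 to 0.265 with any other tumour left out, 0.652 with tag family as a term and 0.466 with tumours 13 and 04 traded, where the log2 fold change was 1.39.

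Cyp2c37, a pericentral cytochrome P450 that oxidises arachidonic acid, was next. It stood at 128, 77.4, 88.3, 73.9 and 63.4 CPM in the high tumours and at 29.6, 24.1, 36.7, 35.5 and 28.6 CPM in the low tumours. Again no low tumour reached a high one. The log2 fold change was 1.52 ± 0.22 (edgeR adjusted p = 0.146; DESeq2 adjusted p = 8.81e-07), and 1.12 within tumours 09 to 13. Cyp2c genes are close in sequence, so reads shared between them may have been lost or misplaced.

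Mst1r encodes RON, the receptor tyrosine kinase for macrophage-stimulating protein, a ligand made by hepatocytes. It stood at 26.7, 23.6, 25.3, 7.76 and 10.9 CPM in the high tumours and at 3.71, 5.18, 2.78, 6.57 and 5.63 CPM in the low tumours. The high group was split, with tumours 08 and 13 near the low range and the other 3 far above it. The log2 fold change was 2.03 ± 0.38, and 2.19 within tumours 09 to 13. The remaining leading genes with higher values had smaller differences. Zfp523, a zinc finger transcription factor (log2 fold change 0.76 ± 0.14), and Shf, an SH2 domain adaptor (0.77 ± 0.14), both had groups that did not overlap. So did the SET domain gene Smyd4 (0.88 ± 0.17), D630003M21Rik (0.74 ± 0.14) and the pseudogene Pisd-ps2 (0.99 ± 0.19). For Mst1r and these 5 genes the edgeR adjusted p lay between 0.346 and 0.363, and DESeq2 called all 6 (adjusted p = 0.000518 for Mst1r to 0.00138 for Smyd4).

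**Figure D2:**
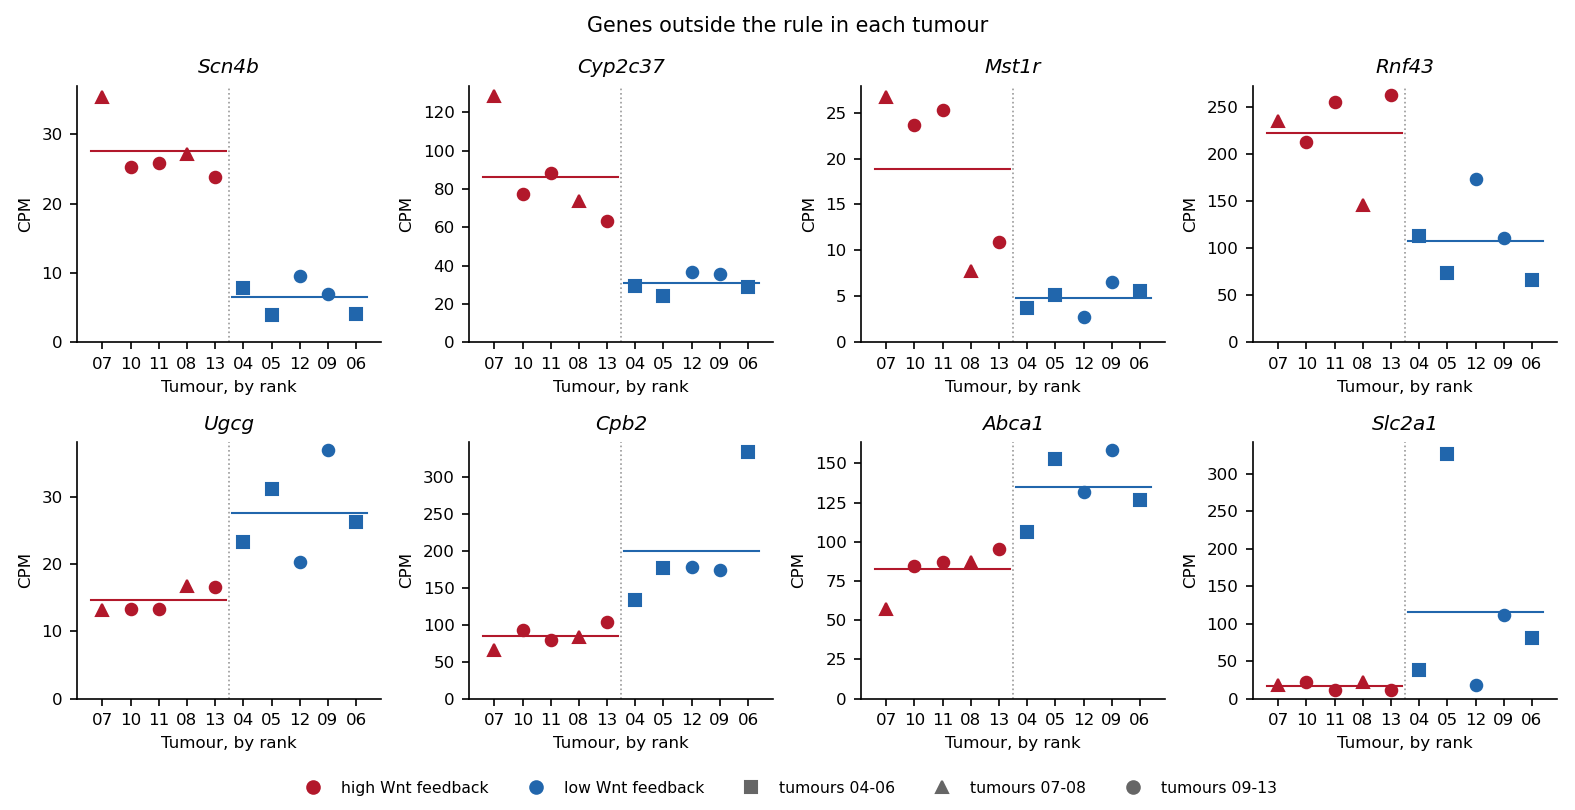
CPM (linear axes from 0) of 8 genes outside the rule in each tumour, ordered by the score; symbols, colours and lines as in the plot of the 4 genes that set the groups. Scn4b lies at 23.9 to 35.4 CPM in the high and 3.99 to 9.63 CPM in the low tumours; Ugcg, Cpb2 and Abca1 lie lower in every high tumour, and Slc2a1 overlaps only through tumour 12 at 17.8 CPM.

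Genes with lower values in the high tumours were led by Ugcg, which makes glucosylceramide, the precursor of most glycosphingolipids. Ugcg stood at 13.3, 13.4, 13.3, 16.7 and 16.6 CPM in the high and 23.3, 31.3, 20.4, 37.0 and 26.3 CPM in the low tumours. The groups did not overlap, with a log2 fold change of −0.89 ± 0.16 (edgeR adjusted p = 0.346; DESeq2 adjusted p = 0.000848). Cpb2, a liver-made carboxypeptidase that slows the breakdown of fibrin clots, stood at 65.3, 92.5, 79.3, 83.3 and 104 CPM against 133, 176, 179, 175 and 334 CPM. Here too each low tumour lay above each high one (−1.23 ± 0.24; DESeq2 adjusted p = 0.00189).

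Abca1, the transporter that loads cholesterol onto apolipoprotein A-I, stood at 57.2, 84.7, 87.3, 87.25 and 95.5 CPM in the high and 106, 153, 132, 158 and 127 CPM in the low tumours. Its groups were apart, by a log2 fold change of −0.70 ± 0.15. The same held for C9orf72 (−0.98 ± 0.20), for the kinase Pak2 (−0.46 ± 0.10) and for Eps15, an adaptor of endocytosis (−0.66 ± 0.15). It also held for Gtpbp4, a GTPase of ribosome assembly (−0.46 ± 0.10), for the actin-bundling gene Lcp1 (−0.56 ± 0.13) and for Il17rb, a receptor for interleukin 25 (−1.41 ± 0.32). Zfand2a, an arsenite-inducible zinc finger gene, was the fifth by p (−1.72 ± 0.36) and overlapped through tumour 12 at 25.9 CPM. Within tumours 09 to 13 all 10 had negative values, from −1.03 for Zfand2a to −0.40 for Pak2. Their edgeR adjusted p ranged from 0.346 to 0.385, and DESeq2 called all 10 (adjusted p from 0.000848 for Ugcg to 0.0235 for Eps15).

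Genes whose log2 CPM followed the score closely over the 10 tumours were mostly not the ones with the largest differences. Rnf167, a ubiquitin ligase, had a Pearson r of 0.93 with the score. It stood at 82.2, 70.4, 72.3, 68.7 and 59.4 CPM in the high and 47.3, 50.4, 49.2, 49.1 and 47.2 CPM in the low tumours. The low tumours were almost level, and tumour 13, the lowest of the high group in score, was also its lowest here (log2 fold change 0.56 ± 0.13). Gstt2, a glutathione transferase (0.78 ± 0.18), and Bcar3, an adaptor protein (0.71 ± 0.15), also had groups that did not overlap, and DESeq2 called these 3 (adjusted p = 0.0235 for Rnf167, 0.0238 for Gstt2 and 0.00532 for Bcar3). Others were Shf, Adck5, Ppdpf, Phyhd1, Mrpl14 and Cs, the citrate synthase of the mitochondrial matrix, with log2 fold changes from 0.31 for Cs to 0.77 for Shf.

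Other negative regulators and direct targets of Wnt signalling were mostly higher in the high tumours. Of 25 genes on that list, 18 passed the filter on low counts, and 13 of the 18 had positive and 5 negative values, with a median log2 fold change of 0.35 against −0.01 over all genes. An unadjusted p under 0.05 was reached by 5, each with a higher value (4.68% of all genes), and none passed edgeR's adjusted threshold. The median was 0.20 within tumours 09 to 13, and 0.15 without tumour 12.

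The ligases that remove Frizzled receptors from the membrane led this list. Znrf3 stood at 81.8, 64.8, 70.9, 69.3 and 88.1 CPM in the high and 49.2, 38.7, 59.0, 56.1 and 31.4 CPM in the low tumours. The groups did not overlap, and the log2 fold change was 0.70 ± 0.17 (unadjusted p = 0.00184, edgeR), with a DESeq2 call. Rnf43 stood at 235, 212, 255, 145 and 262 CPM against 113, 74.0, 173, 111 and 66.2 CPM. Only tumour 08 among the high and tumour 12 among the low tumours crossed over (1.07 ± 0.27, also called by DESeq2). Within tumours 09 to 13 the values were 0.41 for Znrf3 and 0.80 for Rnf43.

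The transcription factor Tcf7 (log2 fold change 0.47 ± 0.14), the TNF receptor family member Tnfrsf19 (0.77 ± 0.23) and the R-spondin receptor Lgr4 (0.50 ± 0.20) were the other 3 at an unadjusted p under 0.05. Tnfrsf19 stood at 78.9, 81.8, 75.3, 58.8 and 78.4 CPM in the high and 60.3, 43.4, 52.1, 44.4 and 21.3 CPM in the low tumours, which overlapped only between tumours 08 and 04. Sp5, a repressor of Wnt targets, had a log2 fold change of 0.56 ± 0.26. Not every target followed: Sox9 had −1.73 ± 1.00, Tbx3 −0.14 ± 0.19 and Prox1 0.02 ± 0.22. Apcdd1, a membrane inhibitor of Wnt, had the largest positive value of the list with a wide error (1.45 ± 0.97), from 0.683 to 31.6 CPM within the high group alone.

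The core of TCF/LEF binding sites, CTTTGAT, was looked for on both strands of the RefSeq promoter windows (GRCm38.p6, 250 bases before to 50 after each start). It occurred in 3.73% of all 32851 windows. Among the 4 ranking genes, Axin2 and Nkd1 had a window each and neither held it. The other Wnt regulators and targets had 23 windows over 16 genes, of which 2 held it, in Sp5 and Tnfrsf19. The leading genes with higher values had 13 windows over 8 genes, of which 1 held it, in Mst1r. The pericentral genes had 20 windows over 19 genes, of which 3 held it, in Lect2, Cyp2c29 and Slc1a2. Windows of 61 bases around 4 of these matches are shown as examples. Those of Cyp2c29 (log2 fold change 0.74) and Slc1a2 (0.37), which also had higher values in the high tumours, are not shown. Capitals mark the match, read along each gene's strand.
Sp5 (chr2:70474792-70474852, plus strand): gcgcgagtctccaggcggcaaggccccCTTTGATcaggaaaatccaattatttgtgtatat
Mst1r (chr9:107906848-107906908, plus strand): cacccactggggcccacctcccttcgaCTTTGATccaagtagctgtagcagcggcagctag
Lect2 (chr13:56548537-56548597, minus strand): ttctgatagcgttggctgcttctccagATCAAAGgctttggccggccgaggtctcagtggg
Tnfrsf19 (chr14:61038156-61038216, minus strand): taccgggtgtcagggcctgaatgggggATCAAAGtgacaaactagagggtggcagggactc
A match is a stretch of letters, and binding was not measured.

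The core pathway list, which spans receptors, the destruction complex, β-catenin itself and its nuclear partners, was centred near 0. Of 29 genes tested, 14 had positive and 15 negative values, with a median of −0.05 (0.17 within tumours 09 to 13). Fzd8, a Frizzled receptor, stood at 8.56, 13.1, 18.1, 11.7 and 10.9 CPM in the high and 8.82, 5.87, 4.83, 7.27 and 7.09 CPM in the low tumours. Tumours 07 and 04 overlapped narrowly (log2 fold change 0.90 ± 0.23, called by DESeq2). Tnks2 (−0.43 ± 0.15) and Tnks (−0.46 ± 0.20), the tankyrases that mark Axin for degradation, had lower values in the high tumours. They were the 2 lower genes at an unadjusted p under 0.05 (5.52% of all genes), and Fzd8 was the 1 higher gene (4.68%).

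Wnt and R-spondin ligands, secretion genes and extracellular inhibitors were also listed. Of 20 genes, 12 passed the filter on low counts, 9 with positive values, with a median of 0.64. Wnt4 stood at 196, 338, 404, 176 and 275 CPM in the high and 164, 287, 1.18, 160 and 113 CPM in the low tumours. Tumour 12 had almost none (0.96 ± 0.80). Rspo3, an R-spondin made by central vein endothelium in normal liver, stood at 11.9, 20.004, 2.98, 4.55 and 1.98 CPM against 1.33, 0.499, 0.816, 6.99 and 4.41 CPM, so the groups overlapped widely (1.64 ± 0.80). The list's median was 0.21 within tumours 09 to 13, 1.14 without tumour 09 and 0.38 with tumours 13 and 04 traded.

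Pericentral metabolic genes, which β-catenin controls in hepatocytes, mostly had higher values in the high tumours, but their best-known member did not. Of 23 genes tested, 17 had positive and 6 negative values, with a median of 0.37. An unadjusted p under 0.05 was reached by 6, each with a higher value (4.68% of all genes), and none passed edgeR's adjusted threshold. Glul, the glutamine synthetase used to mark β-catenin activity, stood at 8455, 9240, 8604, 14223 and 9069 CPM in the high and 14818, 10904, 12592, 6024 and 11267 CPM in the low tumours. The groups overlapped throughout and 4 of the 5 low tumours exceeded 4 of the 5 high ones (−0.16 ± 0.27, unadjusted p = 0.559, edgeR).

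Beside Cyp2c37, the genes at an unadjusted p under 0.05 were Lhpp, Lect2, Cyp2c29, Oat and Gulo. Lhpp, a phosphatase, stood at 1091, 1344, 1024, 1129 and 1319 CPM in the high and 894, 797, 1079, 748 and 695 CPM in the low tumours (log2 fold change 0.50 ± 0.17). Only tumour 12 lay within the high range. Lect2, a secreted hepatokine, had 0.79 ± 0.31, with 0.15 within tumours 09 to 13 and 0.33 without the 3 libraries rich in Rpph1. Oat, the ornithine aminotransferase, had 0.53 ± 0.22, with 0.40 and 0.39 in the same sets. Values of Cyp2e1 (0.18 ± 0.25) and Cyp7a1, the rate-limiting enzyme of bile acid synthesis (0.35 ± 0.44), were smaller than or close to their errors. Within tumours 09 to 13 the median of the list was 0.05, with 13 positive and 10 negative values, and with tumours 13 and 04 traded it was 0.23.

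Periportal genes had a median of −0.27 over 18 genes tested, with 6 positive and 12 negative values, and −1.30 within tumours 09 to 13. Without tumour 12 the pooled median was 0.15, and without tumour 08 it was −1.03. Cps1, the first enzyme of the urea cycle, stood at 11.3, 22.4, 14.2, 180 and 12.7 CPM in the high and 38.2, 4.43, 217, 223 and 120 CPM in the low tumours. Tumour 08 was the exception in the high group and tumour 05 in the low one (−1.29 ± 1.00).

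**Figure D3:**
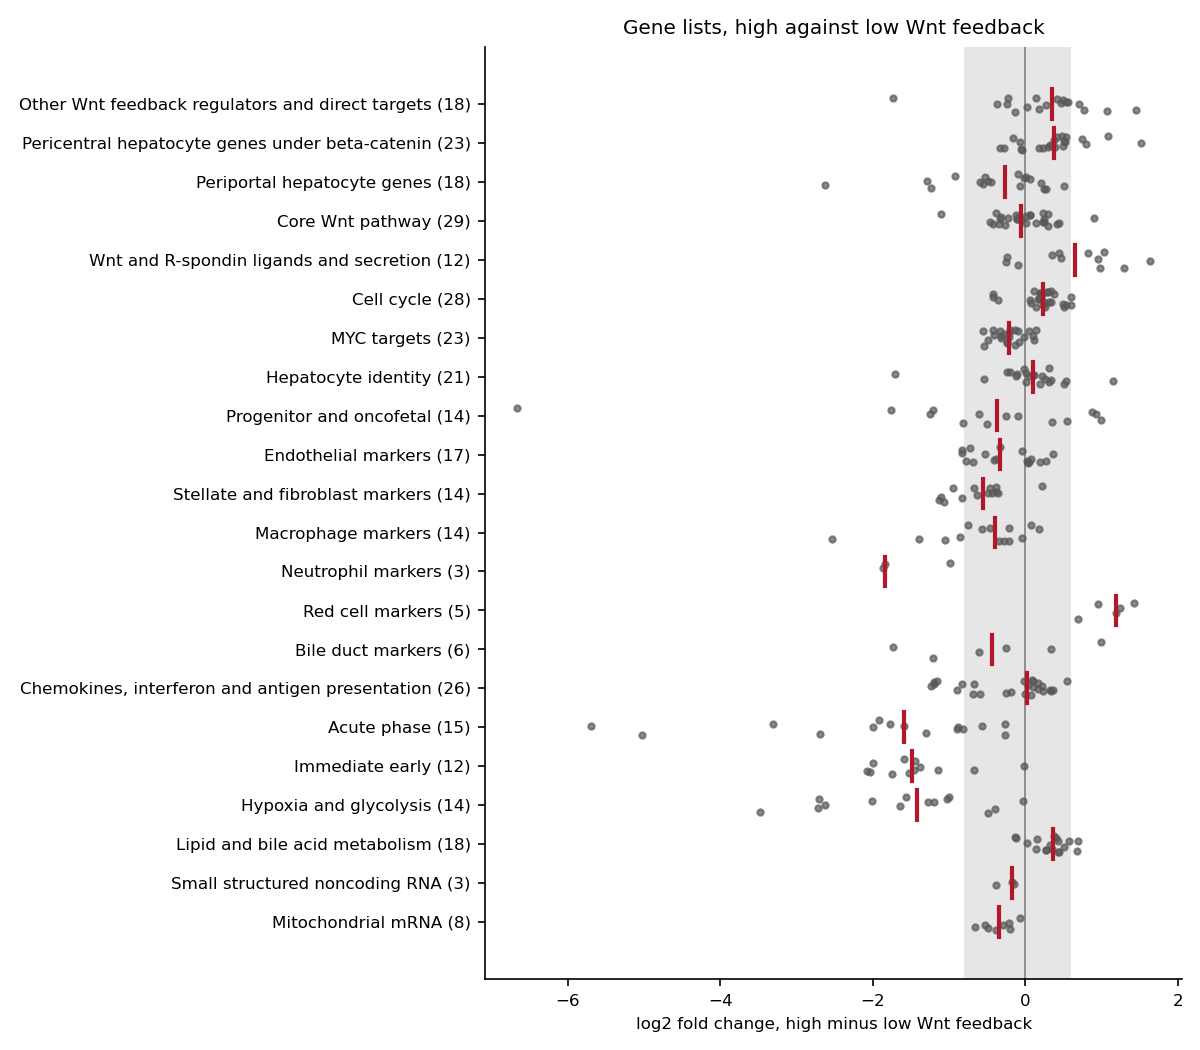
Fitted log2 fold change (x axis, high minus low Wnt feedback) of each tested member of 22 gene lists (y axis, number tested in parentheses); points are genes, red bars are list medians, and the grey band spans the middle 90% of all genes. The acute phase, immediate early, and hypoxia and glycolysis lists lie to the left with medians of −1.59, −1.49 and −1.42.

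The gene groups that stood farthest from the all-gene median lay below it, the farthest being the 3 neutrophil markers given later. Of 14 hypoxia and glycolysis genes tested, all 14 had negative values and 11 reached an unadjusted p under 0.05 (5.52% of all genes), with a median of −1.42 and no edgeR call. Slc2a1, the glucose transporter GLUT1, stood at 18.5, 21.8, 11.7, 22.4 and 11.3 CPM in the high tumours. It stood at 38.6, 327, 17.8, 112 and 80.6 CPM in tumours 04, 05, 12, 09 and 06. Tumour 05 was far above the rest and tumour 12 lay with the high tumours (−2.72 ± 0.66, called by DESeq2).

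Pfkp, a phosphofructokinase, was likewise highest in tumour 05 (log2 fold change −2.70 ± 0.72, called by DESeq2), with 69.8 CPM in tumour 05 and 2.19 CPM in tumour 12. Bnip3, a mitophagy receptor induced by low oxygen, stood at 28.8 to 59.3 CPM in the high and 46.2 to 306 CPM in the low tumours (−1.57 ± 0.47). Adm, the vasodilator peptide adrenomedullin, stood at 0.186 to 5.82 CPM in the high and 0.457 to 71.2 CPM in the low tumours (−3.48 ± 1.12). Vegfa (−1.03 ± 0.44) and the pyruvate kinase Pkm (−2.01 ± 0.66) were among the 11, and Eno1 (−0.03 ± 0.16) was not. The list median was −0.92 without tumour 05 and −0.88 within tumours 09 to 13, where 13 of 14 values were negative. Without the 3 libraries rich in Rpph1 it was −0.94. Both of these sets include tumour 09, whose list score, the mean log2(CPM + 1) of the list's genes, was 6.05. Low tumour 12 had the lowest list score of the 10 tumours, 4.18, beside 4.21 and 4.25 in high tumours 11 and 13, so the value within tumours 09 to 13 rests on tumour 09.

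All 15 acute phase genes, which hepatocytes release in inflammation, had negative values, with a median of −1.59, and 8 reached an unadjusted p under 0.05 (5.52% of all genes). The median was −0.57 within tumours 09 to 13, with 2 positive values, and −0.19 without the 3 libraries rich in Rpph1, with 3 positive values. The fibrinogen chains were lower in every high tumour or nearly so. Fgb stood at 1597, 1150, 1389, 1729 and 1486 CPM in the high and 1875, 5575, 2038, 2145 and 12279 CPM in the low tumours, with no overlap (−1.71 ± 0.52, called by DESeq2); it was counted in the hepatocyte list and is not among the 15. Its value was −0.60 within tumours 09 to 13 and −0.46 without the libraries rich in Rpph1. Fgg (−1.92 ± 0.55, and −0.85 within tumours 09 to 13) was the only one of the 15 whose groups did not overlap, and Fga (−2.003 ± 0.58, and −0.80) overlapped through tumour 08; DESeq2 called both. The serum amyloid genes rested on 1 tumour: Saa1 stood at 854 CPM in tumour 06 and at 8.89 to 29.9 CPM in the other low tumours, against 1.79 to 13.7 CPM in the high ones. The log2 fold change of Saa1 was −5.03 ± 1.43 with tumour 06 and −1.56 without it, and the list median was then −0.63. Lcn2 (−3.31 ± 0.93, called by DESeq2) was at 1491 CPM in tumour 06 and 477 CPM in tumour 05, and had −0.22 within tumours 09 to 13.

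Immediate early genes, which respond within minutes to growth factors, stress or tissue handling, had 12 negative values of 12 tested and a median of −1.49. An unadjusted p under 0.05 was reached by 4 of them (5.52% of all genes). Btg2, an antiproliferative gene, stood at 147, 36.8, 38.9, 61.1 and 45.3 CPM in the high and 72.8, 657, 36.7, 215 and 443 CPM in the low tumours (−2.07 ± 0.73). Tumours 05, 06 and 09 carried the difference, and tumour 12 again lay with the high tumours. Fos stood at 103 CPM in tumour 07, a high tumour, and 1.498 to 11.8 CPM in the other high ones, against 1.21 to 182 CPM in the low group (−1.45 ± 1.33). Within tumours 09 to 13 the list score was 6.02 in tumour 09 and 3.43 in tumour 12, the lowest of all 10, against 3.68 to 3.99 in the high tumours. The list median was −1.27 within tumours 09 to 13, where tumour 09 alone of the low tumours lay above the high ones, −2.35 without tumour 07 and −0.60 with the score as a continuous term. Of the 4 tumours with the highest list score (05, 06, 09 and 07), 3 were the libraries rich in Rpph1. Without those 3 libraries the median was −1.04, and −1.05 with the structured RNA score as a covariate.

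Lipid and bile acid genes had the opposite sign. Of 18 tested, 16 had positive values, with a median of 0.36, 0.22 within tumours 09 to 13 and 0.55 without tumour 12. Srebf1, the transcription factor of fatty acid synthesis (0.44 ± 0.17), and Nr0b2, the bile acid sensor's target SHP (0.68 ± 0.28), were the 2 at an unadjusted p under 0.05 (4.68% of all genes). Fasn, the fatty acid synthase, stood at 1704, 1492, 1738, 2184 and 2386 CPM in the high and 1686, 660, 2030, 877 and 683 CPM in the low tumours. Tumours 05, 09 and 06 were low, and tumours 04 and 12 lay within the high range (0.69 ± 0.33).

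Cell cycle genes leaned up and MYC targets leaned down, by small amounts. Of 28 cell cycle genes, 25 had positive values with a median of 0.23, but none reached an unadjusted p under 0.05. Mki67 stood at 27.3, 64.2, 55.9, 99.6 and 82.9 CPM in the high and 28.0, 33.1, 69.9, 49.2 and 48.0 CPM in the low tumours (0.53 ± 0.32). The list median was −0.07 within tumours 09 to 13 and −0.04 with tumours 13 and 04 traded, and it was 0.11 without tumour 08 and 0.37 without tumour 12. Of 23 MYC targets, 19 had negative values, with a median of −0.21, −0.17 within tumours 09 to 13, −0.12 without tumour 06 and −0.35 with tumours 13 and 04 traded. An unadjusted p under 0.05 was reached by 3 of the 23, each with a lower value (5.52% of all genes). They were Nolc1, a nucleolar protein (−0.48 ± 0.17), Gnl3, nucleostemin (−0.41 ± 0.16), and Ldha (−0.54 ± 0.21). Ldha had −0.17 within tumours 09 to 13 and −0.12 without the libraries rich in Rpph1.

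Progenitor and oncofetal genes had a median of −0.38 over 14 tested and −1.19 within tumours 09 to 13. The fetal growth factor Igf2 stood at 1693 CPM in tumour 09 and at 0.0624 to 5.84 CPM in the other 9 tumours. Its log2 fold change was −6.67 ± 2.29 with tumour 09 and 0.67 without it. Without that tumour the list median was 0.68, the opposite sign, and without tumour 08 it was −0.75. The summed level of the list was 9945 CPM in tumour 09 and 3239 CPM in high tumour 13, against 33.1 to 265 CPM in the others. The hepatocyte list had a median of 0.10 over 21 genes (−0.05 within tumours 09 to 13), with the transcription factor Hnf4a at 0.22 ± 0.14 and G6pc1, the glucose-6-phosphatase, at 1.15 ± 0.39 (0.09 within tumours 09 to 13).

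Most lists of markers of other cell types had negative medians, no member passed edgeR's adjusted threshold, and in bulk tissue fewer cells of a type and less RNA per cell cannot be told apart. Of 14 stellate cell and fibroblast markers, 13 had negative values, with a median of −0.56. It was −1.15 without tumour 07, −0.30 without tumour 09 and −0.01 with tumours 13 and 04 traded. Their summed level ran from 320 to 1723 CPM in the high and from 289 to 2345 CPM in the low tumours. The 17 endothelial markers had 10 negative values and a median of −0.33, with sums of 151 to 798 and 130 to 627 CPM. The endothelial median was 0.07 without tumour 09, −1.14 without tumour 07 and 0.18 with tumours 13 and 04 traded. Within tumours 09 to 13 every one of these markers was negative, with medians of −1.68 and −1.36, and tumour 09 had the highest fibroblast sum of the 10 tumours. Tumour 12 did not share this. Its endothelial list score of 2.74 was the lowest of all 10 (2.84 to 3.05 in high tumours 10, 11 and 13), and its fibroblast list score of 3.62 lay within the 3.46 to 3.76 of those high tumours.

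Of 14 macrophage markers, 12 had negative values with a median of −0.40 (−0.86 within tumours 09 to 13). It was −0.17 without tumour 06, −0.65 without tumour 07 and −0.14 with tumours 13 and 04 traded. Summed levels ran from 191 to 493 CPM in the high and from 240 to 585 CPM in the low tumours. Cd68, a lysosomal marker, stood at 24.9, 11.9, 14.3, 11.3 and 21.3 CPM against 48.9, 66.8, 13.6, 49.8 and 46.5 CPM. Only tumour 12 of the low group lay within the high range (−1.40 ± 0.37, called by DESeq2, as was Cd14 at −2.53 ± 0.79). Complement C1qb had a small value, −0.34 ± 0.34. No lymphocyte marker of 14 passed the filter on low counts, and their summed level was 1.30 to 11.3 CPM in the high and 1.87 to 9.46 CPM in the low tumours. The 3 neutrophil markers tested had a median of −1.84 (−1.70 within tumours 09 to 13 and −0.87 without tumour 06), with sums of all 8 markers of 2.65 to 10.4 and 1.70 to 33.3 CPM. Red cell genes had a median of 1.19 that became −2.06 without tumour 07, where Hba-a1 stood at 1238 CPM.

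Bile duct markers had 2 positive and 4 negative values of 6 tested, with a median of −0.43. It was −0.62 within tumours 09 to 13, −0.88 without tumour 11, −0.11 without tumour 13 and 0.26 with tumours 13 and 04 traded. The 26 interferon, chemokine and antigen presentation genes had a median of 0.02, which was −0.26 within tumours 09 to 13, −0.58 without tumour 11, 0.26 without tumour 12 and −0.24 with tumours 13 and 04 traded. Mitochondrial mRNAs had 8 negative values of 8, with a median of −0.34, −0.59 within tumours 09 to 13, −0.01 without tumour 04, −0.56 without tumour 05 and 0.43 with tumours 13 and 04 traded. The 3 small structured RNAs tested had a median of −0.17 (0.80 within tumours 09 to 13 and −2.74 without tumour 07). The part that cell types, blood or RNA quality had in the differences above was not tested. With the structured RNA score as a covariate the medians were 0.29 for the Wnt regulators, −1.10 for hypoxia and glycolysis and −1.23 for the acute phase.

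**Figure D4:**
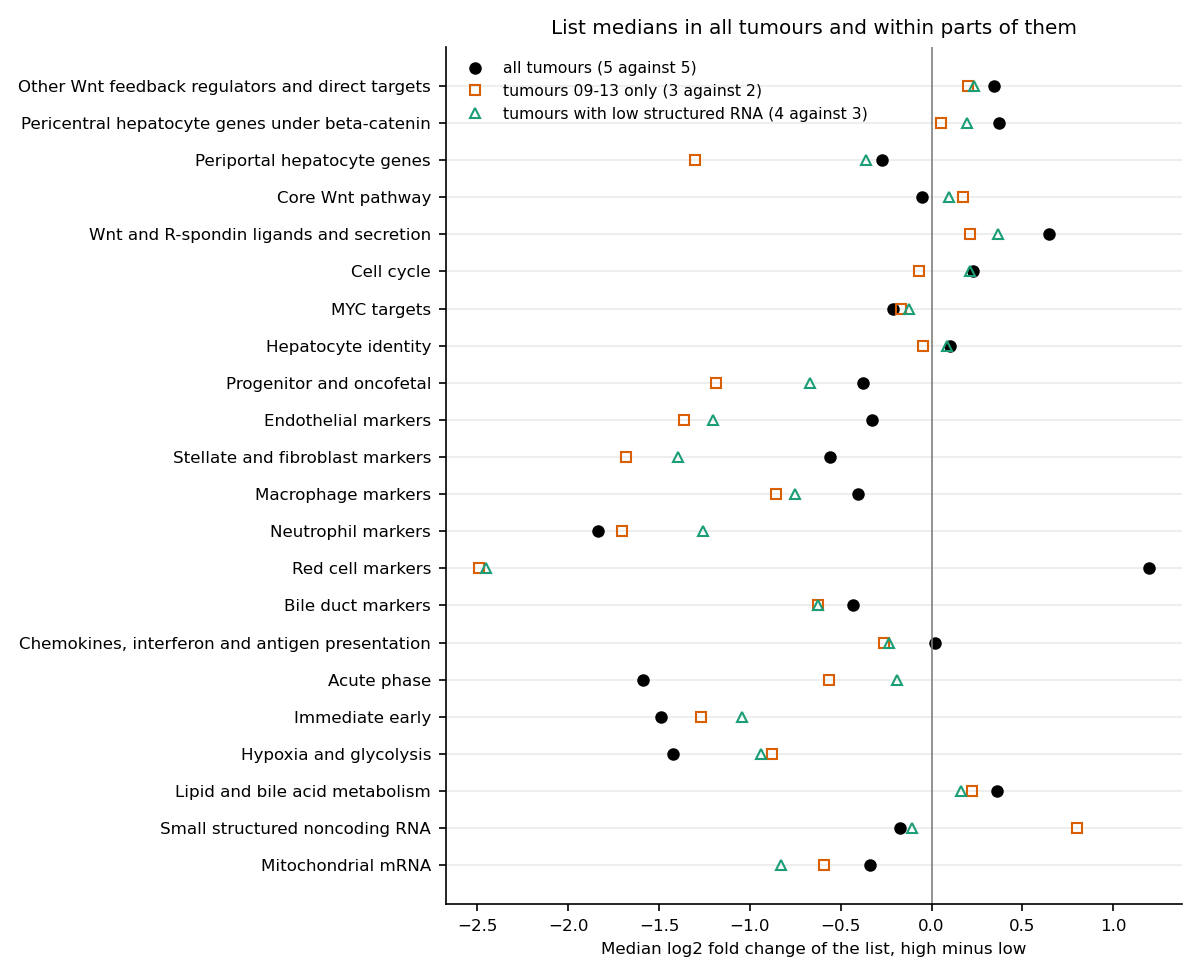
Median log2 fold change (x axis, high minus low) of each gene list in all tumours (5 against 5), within tumours 09 to 13 (3 against 2) and in the tumours low in structured RNA (4 against 3); 1 point per list and set of tumours. The red cell median is 1.19 in all tumours and −2.49 within tumours 09 to 13, and the hypoxia and glycolysis median is −1.42, −0.88 and −0.94, with tumour 09 in all 3 sets.

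Genes near Notum on chromosome 11 were looked at beside the ranking gene, and none passed edgeR's adjusted threshold. Notumos, the antisense RNA of Notum, stood at 62.4, 57.9, 37.98, 34.3 and 34.4 CPM in the high and 19.96, 8.67, 15.4, 17.4 and 12.5 CPM in the low tumours, with no overlap. The strand setting of the counting was not stated, so its reads and those of Notum may not be told apart, and its log2 fold change of 1.65 ± 0.27, called by DESeq2, is given as a description and not as a test independent of the ranking.

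Aspscr1, a tether of glucose transporter vesicles, begins 11.8 kb from Notum. It stood at 488, 282, 306, 263 and 301 CPM in the high and 166, 157, 166, 168 and 161 CPM in the low tumours. The low tumours were almost level and every high tumour was above them (1.04 ± 0.19, edgeR adjusted p = 0.363; DESeq2 adjusted p = 0.000848). Of the 14 genes tested within 100 kb of Notum, 13 had positive values (48.3% of all genes and 65.5% of those on chromosome 11), 7 reached an unadjusted p under 0.05 (10.2% of all genes), and the median was 0.41. Rac3, a small GTPase (1.54 ± 0.40), Lrrc45, a centrosomal protein (0.94 ± 0.23), and Pcyt2, of phosphatidylethanolamine synthesis (0.65 ± 0.21), were among the 7, with Rac3 and Lrrc45 called by DESeq2, whereas Arhgdia had −0.27 ± 0.21 and P4hb 0.01 ± 0.19. The other ranking genes had few tested neighbours: 2 around Axin2, 3 around Lgr5 and 1 around Nkd1, with values from −0.59 for Snx20 to 1.46 for Cep112it.

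**Figure D5:**
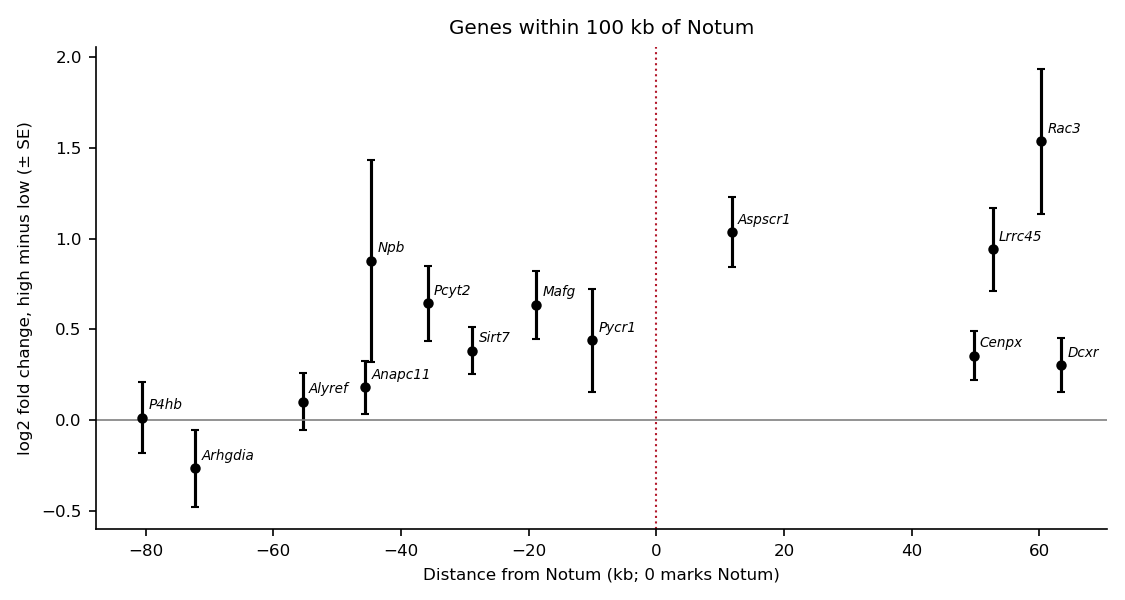
Fitted log2 fold change (high minus low, y axis; bars are standard errors of the fit over 10 tumours) of the 14 genes tested within 100 kb of Notum, by distance in kb from the gene (x axis, 0 marks Notum). Aspscr1 at 1.04 and Rac3 at 1.54 are the highest, and Arhgdia at −0.27 is the only value under 0.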

How the data were processed

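Polyadenylated RNA of 19 samples was sequenced with a stranded kit. The authors deposited 1 table of counts per Ensembl gene, whole numbers that were not normalised. The submitters' processing notes name TopHat2, HTSeq and GRCm38, and the strand setting is not given in the sources used here. Columns were used where a number matched a single title, which left 10 tumours; the labels do not state that these numbers are library numbers. 9 columns were not used. Alignment summary lines (no feature, ambiguous, not unique) were left out of totals. Symbols came from GENCODE by stable ID for 34199 of 39179 genes, and positions and promoter windows from RefSeq (GRCm38.p6).

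Groups followed the ranking in the report. Counts were fitted with edgeR 4.0.16 (TMM, filterByExpr, quasi-likelihood test, two-sided, Benjamini-Hochberg, threshold 0.05) in R 4.3.3; the 4 ranking genes stayed in library sizes and out of the tests. DESeq2 1.42.0, limma 3.58.1 with voom, other scalings, no filter, tag family, structured RNA and each tumour left out were alternatives, as were 3 chosen after seeing the data: tumours 09 to 13 alone, the full tag as a fixed term, and groups by TMM-scaled scores. The test was tried on simulated counts. The members and gene lists were chosen with earlier results of these data known. Genes named were list members past the threshold or, with none, the 2 largest differences per list, the 10 lowest p in each direction (mean CPM of at least 5), the 10 closest to the score (1 of which is not reported here), Ctnnb1 and Myc; other list members and neighbours of the ranking genes were chosen after their values were seen. Tumours that share a tag may share an animal, so p-values measure the spread between samples only. Total counts of 11687034 to 36964427 put 3 counts at 0.0812 to 0.257 CPM.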

Additional observations from a re-analysis of the deposited data

Results flagged for a closer look

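Within each group of 5, a tumour was singled out where its gap to the nearest other, divided by the range of the group on the log2(CPM + 1) scale, was above 0.71. For independent, normally distributed values about 1 in 20 groups would pass, or 9.9 of the 198 tried. Here 17 passed, 7 of them in tumour 07. The measures overlap, such as Rpph1 with the structured RNA list, and many genes were chosen for large differences. The 9.9 is therefore no yardstick for the 17. Tumour 07 was highest of the high group for Hba-a1 (0.716), the red cell list (0.783), Rpph1 (0.803), Rmrp (0.863), the structured RNA list (0.796) and Aspscr1 (0.753), and lowest for Abca1 (0.766). In the low group tumour 06 was highest for Saa1 (0.745) and Saa2 (0.747) and lowest for Phyhd1 (0.722), tumour 09 highest for Igf2 (0.792), tumour 12 lowest for Cd68 (0.768) and tumour 04 highest for Ppdpf (0.780). In the high group tumour 10 was lowest for Cyp8b1 (0.740), tumour 08 highest for Cps1 (0.761), tumour 11 highest for mt-Cytb (0.731) and tumour 13 highest for Gtpbp4 (0.884).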

How the results depend on the processing

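The count of genes past the adjusted threshold was 0 in both directions under the other alternatives run, and 1 higher (Scn4b) with no filter and without tumour 12 (0 to 1 over the tumours left out). DESeq2 called 64 higher (0.511%) and 55 lower (0.44%) of 12514 genes with an adjusted p. Those higher included 2 of the 18 Wnt regulators tested by edgeR, 1 of 23 pericentral and 1 of 29 core Wnt genes. Those lower included 1 of 21 hepatocyte genes and 2 of 14 macrophage markers. They also included 3 of 15 acute phase genes and 2 of 14 hypoxia and glycolysis genes. Some list members, such as Saa1, had no DESeq2 adjusted p. TMM-scaled scores kept 4 of the high tumours. Few of the single genes checked reversed sign, whereas several list medians did, as given with each list above. Hba-a1 became −0.51 with voom, −2.43 with the family term, −0.73 with the structured RNA covariate, −2.45 without the libraries rich in structured RNA and −2.41 within tumours 09 to 13. Hba-a2 became −2.51, −0.21, −1.95 and −2.49 under the last 4 of these. Rpph1 became 0.30 with the continuous score, 0.94 with family, 0.024 with the covariate and 0.94 within tumours 09 to 13, and Rmrp 0.37, 0.39, 0.0498 and 0.40. Myc became 0.13 without the libraries rich in structured RNA. With tumours 13 and 04 traded, Cyp8b1 became −0.25 and mt-Cytb 0.27. With the full column tag as a term, Cyp8b1 became −0.81, G6pc1 −0.093, Hba-a1 −0.86, Hba-a2 −0.96, Rmrp 0.29 and Rpph1 0.96. The cause was not tested. With each tumour left out in turn, values ran from −2.06 to 1.86 for Hba-a1, −1.20 to 5.29 for Hba-a2, −7.01 to 0.67 for Igf2, −2.74 to 0.46 for Rmrp and −3.00 to 0.37 for Rpph1. No paired analysis was possible by replicate number, because the numbers that labels share across groups join tumours to control livers, whose columns were not used. Analysis within the sets of tumours that share a column tag was possible and was run. Voom with the tag as a random block, edgeR with tag family as a term and edgeR with the full tag as a term each called 0 genes. Depth limited low genes, and 31.6% of 2-fold changes were recovered in the simulation.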

Other observations

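Fold changes differed somewhat by chromosome. RefSeq positions were found for 13553 of 14216 genes tested, which were then taken chromosome by chromosome, without a test, since neighbouring genes are not independent. Chromosome 11, which carries Axin2 and Notum, had a median log2 fold change of 0.12 over 1130 genes, 65.5% of them positive, and 0.14 within tumours 09 to 13. Chromosome 17 had 0.08 over 663 genes and 0.09 within those tumours. Chromosome 15 had 0.04 over 535 genes but 0.26 within those tumours, the highest median of that set. Chromosome 8, which carries Nkd1, had −0.15 over 726 genes, 28.2% of them positive, and −0.12 within tumours 09 to 13. Chromosome 5 had −0.13, but −0.046 within tumours 09 to 13, and chromosome 4 had −0.11, and −0.14 within them, against −0.01 over all genes in the 10 tumours. Copy number was not measured in these samples.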
